A study of Mus musculus with 18 samples.

Results

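The genes described here are 10 transcription factors and repressors of the circadian clock: Dbp, Tef, Hlf, Nr1d1, Nr1d2, Per2, Per3 and Ciart, called the evening arm below, and Arntl and Npas2, called the morning arm. They were chosen by name from the 55401 genes of the deposited tables, with their values in these samples already known, so their differences between the genotypes are described without a test. The values are of poly-A RNA in 18 pools of the thick ascending limb, the nephron segment that reabsorbs sodium chloride and divalent cations, each pool holding 150 to 200 microdissected tubules of 1 mouse. The cortical (CTAL) and the medullary (MTAL) segments were dissected from liberase-treated kidneys of adult males aged 4 to 10 months, kept in a cycle of 12 h of light and 12 h of dark, on a C57BL/6 background. All mice carried floxed alleles of Cldn10, the gene of the paracellular sodium channel claudin-10. The cKO mice (5 CTAL and 3 MTAL pools) also carried the Ksp-Cre transgene, which acts in the tubular epithelium of several nephron segments, and the WT mice (5 CTAL and 5 MTAL pools) were littermates without Cre. The hour of dissection of each mouse is not given in the sources used here.

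The clock is a transcriptional loop present in most cells. CLOCK or NPAS2 pairs with BMAL1, the product of Arntl, and binds E-boxes in the promoters of the Per and Cry genes, Ciart, the Nr1d genes and the PAR bZIP factors Dbp, Tef and Hlf. PER, CRY and CIART proteins repress this activation, the REV-ERB receptors encoded by Nr1d1 and Nr1d2 repress Arntl and Npas2 through ROR elements, and DBP, TEF and HLF bind D-boxes in output genes and in Per genes. In mouse kidney the transcripts of the evening arm are high in the second part of the light phase and around dusk, with those of Nr1d1 peaking before those of Per2, and those of Arntl and Npas2 are high around dawn. PAR bZIP factors set daily rhythms of renal transport and detoxification genes.

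The following reference sequences show, for 4 of the members, matches to the letters of the elements named above. They come from RefSeq promoters of GRCm38.p6, which cover 250 bases before and 50 bases after each annotated start, matched 9 of the 10 genes (11 promoters) and were searched on both strands for the E-box CACGTG, the D-box TTANGTAA and the ROR element core TAGGTCA. The windows are printed 5′ to 3′ on the gene's own strand with the motif in capitals.
Ciart, 3 E-boxes, chr3:95882255-95882356, minus strand: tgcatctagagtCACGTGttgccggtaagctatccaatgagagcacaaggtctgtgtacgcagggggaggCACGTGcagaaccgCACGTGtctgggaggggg
Tef, 1 E-box, chr15:81802534-81802563, plus strand: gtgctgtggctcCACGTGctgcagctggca
Per3, 2 D-boxes, chr4:151044804-151044882, minus strand: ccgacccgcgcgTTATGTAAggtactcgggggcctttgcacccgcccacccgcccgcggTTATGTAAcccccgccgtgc
Arntl, 1 ROR element core, chr7:113207531-113207557, plus strand: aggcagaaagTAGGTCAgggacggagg
The E-boxes of Ciart lay between 116 and 44 bases before the start, the E-box of Tef 127 bases before it, the D-boxes of Per3 205 and 158 bases before it, and the element of Arntl at base 31 of the transcript. Of the 9 member genes matched, 2 held the E-box, 1 the D-box and 1 the ROR element core in the stretch searched. Of 32851 promoters of the same length, 7.15% held the E-box, 2.32% the D-box and 2.61% the ROR element core. A match of letters is a description and not a measured binding site.

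Total counts ranged from 10824299 to 62339939 per pool. Cldn10 lay between 151 and 296 CPM (the counts of a gene relative to the normalized total of its pool) in cKO pools and between 384 and 810 CPM in WT pools, without overlap within either segment. The study had left out 1 cKO CTAL pool for a Cldn10 level like that of WT CTAL, so the low Cldn10 of the cKO CTAL pools is in part a selection. The thick limb markers Umod and Slc12a1 were high in all pools (the 6 thick limb markers summed to 40475 CPM or more), and the proximal marker Slc2a2 was at most 0.889 CPM. The sum of the thick limb markers was 40475 to 49260 CPM in WT MTAL and 57904 to 64284 CPM in cKO MTAL, without overlap. In the CTAL it was 61369 to 67733 CPM in WT and 63207 to 71749 CPM in cKO pools. Xist was at 6.49 to 8.76 CPM in 7 of the 18 pools and at most 0.739 CPM in the other 11, although the mice are stated to be male, and transcripts of the Y chromosome were high in every pool. The pools with Xist were mostly WT. In the MTAL they were 4 of 5 WT and 0 of 3 cKO pools, and in the CTAL 2 of 5 WT and 1 of 5 cKO pools. 1 pool, WT CTAL replicate 1, carries WT in its pool name but is given as Cldn10 KO in the rest of its title and in its genotype label. It was used as WT by its pool name, and its Cldn10 level ran with that name: all pools used as WT CTAL were at 384 CPM or more, against at most 185 CPM in cKO CTAL. The labels alone do not settle it. In bulk tubules, fewer expressing cells and less RNA per cell cannot be told apart.

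At the level of TPM, which corrects for transcript length, Nr1d1 (mean of 84.0 TPM over the 10 WT pools), Dbp (82.9 TPM), Tef (76.7 TPM) and Nr1d2 (53.7 TPM) were the abundant members in WT limbs. Ciart (5.57 TPM), Per3 (5.08 TPM), Per2 (4.49 TPM), Hlf (4.07 TPM) and Arntl (2.73 TPM) were far lower, and Npas2 (0.484 TPM) was lowest. The ranges of Nr1d1, Dbp and Tef over the WT pools overlapped one another widely, as did those of Ciart, Per3, Per2 and Hlf. The Npas2 values of the WT pools rest on 8 to 77 reads.

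In both segments the evening arm was lower and the morning arm was higher in cKO than in WT limbs. In the CTAL, 7 of 7 tested evening members were lower, by log2 fold changes between -0.72 and -1.81, and Arntl was higher by 1.51 (SE 0.28). In the MTAL, 8 of 8 evening members were lower, by -0.53 to -2.07, and Arntl and Npas2 were higher, by 1.20 (SE 0.43) and 2.61 (SE 0.52). The median log2 fold change of the members tested was -1.20 in the CTAL and -1.25 in the MTAL, beside 0.0026 and 0.0012 over all genes tested. Across all genes, 0.470% of 11702 were called in the CTAL and 3.74% of 12060 in the MTAL, where called means that the adjusted p was under 0.05 and the log2 fold change was 1 or more in size. CPM ranges that did not overlap between the genotypes were found for 8 of the 8 members tested in the CTAL, where 3.10% of all genes had such ranges, and for 7 of 10 in the MTAL, where 14.4% had them. These contrasts chose the members, so nothing is read from these counts. With WT CTAL replicate 1 counted as cKO, the CTAL values were -1.39 for Dbp, -1.76 for Per2, -0.68 for Nr1d2 and 1.399 for Arntl. Without that pool they were -1.84 for Dbp and 1.55 for Arntl.

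**Figure D1:**
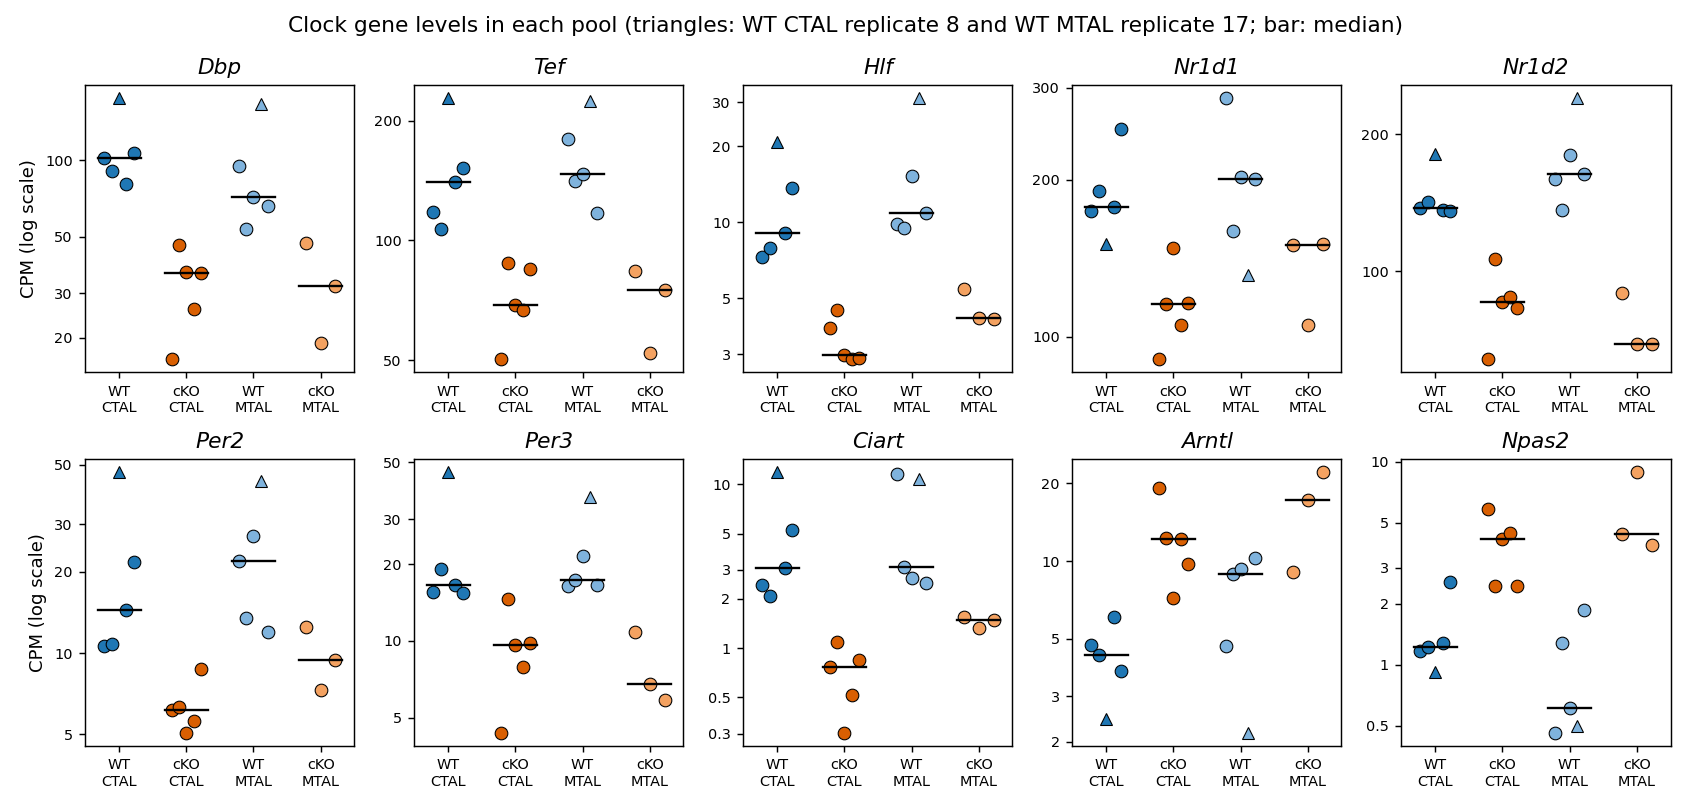
CPM on a log scale of each of the 10 clock genes in the 18 pools, by group; each point is 1 pool, the bar is the median of the group, and triangles mark WT CTAL replicate 8 and WT MTAL replicate 17. The evening arm (Dbp to Ciart) sits lower and Arntl and Npas2 sit higher in cKO than in WT pools, with overlap in the MTAL for Nr1d1, Per2 and Arntl and in the CTAL for Npas2; the triangles are the highest points of Dbp, Tef, Hlf, Nr1d2, Per2 and Per3 in their groups and the lowest of Nr1d1 and Arntl.

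Among the PAR bZIP factors, Dbp stood at 102, 90.9, 176, 80.5 and 107 CPM in WT CTAL replicates 1, 3, 8, 10 and 22, and at 16.5, 46.4, 36.4, 26.1 and 35.9 CPM in cKO CTAL replicates 2, 4, 7, 9 and 21. In the MTAL it was at 95.3, 53.6, 71.9, 168 and 65.8 CPM in WT replicates 11, 13, 15, 17 and 19, and at 47.2, 19.1 and 32.1 CPM in cKO replicates 16, 18 and 20. Every cKO pool was below every WT pool in both segments, and WT CTAL replicate 8 and WT MTAL replicate 17 stood far above the other WT pools. The fold changes of Dbp were 0.285 in the CTAL (log2 -1.81, SE 0.25) and 0.361 in the MTAL (log2 -1.47, SE 0.34). Hlf was as low in relative terms, with 2.88 to 4.51 CPM in cKO CTAL against 7.31 to 20.9 CPM in WT CTAL, and 4.15 to 5.45 CPM in cKO MTAL against 9.52 to 31.1 CPM in WT MTAL. Tef, whose promoter window with an E-box is printed above, differed less, from 149 ± 47.6 CPM (SD, n = 5) in WT CTAL to 71.6 ± 15.1 CPM (n = 5) in cKO CTAL and from 162 ± 41.2 CPM (n = 5) in WT MTAL to 70.3 ± 16.3 CPM (n = 3) in cKO MTAL. None of the 3 factors overlapped between the genotypes in either segment.

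The REV-ERB receptors, which repress Arntl and Npas2, were also lower in cKO limbs, and Nr1d1 was the member with the smallest difference. Nr1d1 was at 174, 190, 150, 177 and 249 CPM in WT CTAL replicates 1, 3, 8, 10 and 22 and at 90.6, 116, 148, 105 and 116 CPM in cKO CTAL replicates 2, 4, 7, 9 and 21. In the MTAL it was at 287, 159, 202, 131 and 201 CPM in WT replicates 11, 13, 15, 17 and 19 and at 150, 105 and 151 CPM in cKO replicates 16, 18 and 20, so that 2 of the 3 cKO pools lay above WT replicate 17. The highest cKO CTAL pool, replicate 7, came within 3 CPM of the lowest WT CTAL pool, replicate 8. Nr1d2 was separated more widely, with 64.1 to 106 CPM in cKO CTAL against 136 to 182 CPM in WT CTAL, and 69.1 to 89.3 CPM in cKO MTAL against 136 to 241 CPM in WT MTAL. Nr1d1 overlaps Thra, and Dbp overlaps Sphk2, on the opposite strand, and Tef, Ciart, Arntl and Npas2 overlap other annotated genes there. Per3 overlaps Camta1, and Npas2 overlaps Gm3617, on the same strand. Use of strand in the counting is not given in the sources used here, so reads of these neighbours may enter the values.

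Per2, Per3 and Ciart, which repress the activators, were lower in cKO limbs and spread widely among the WT pools. Per2 was at 10.7, 10.8, 47.1, 14.4 and 21.7 CPM in WT CTAL replicates 1, 3, 8, 10 and 22 and at 6.14, 6.33, 5.07, 5.61 and 8.77 CPM in cKO CTAL replicates 2, 4, 7, 9 and 21. In the MTAL it was at 22.001, 13.5, 27.2, 43.4 and 11.97 CPM in WT replicates 11, 13, 15, 17 and 19 and at 12.5, 7.31 and 9.42 CPM in cKO replicates 16, 18 and 20. The highest WT pool exceeded the lowest by 4.42 times in the CTAL and 3.62 times in the MTAL, against 1.73 and 1.70 times among the cKO pools. Per3 was at 4.37 to 14.5 CPM in cKO CTAL against 15.4 to 46.0 CPM in WT CTAL, and at 5.87 to 10.8 CPM in cKO MTAL against 16.3 to 36.7 CPM in WT MTAL. Ciart, with 3 E-boxes in the window printed above, was at 2.07 to 11.9 CPM in WT CTAL and 0.304 to 1.08 CPM in cKO CTAL, from 6 to 38 reads in the cKO pools. In the MTAL, Ciart was at 11.5, 3.14, 2.70, 10.7 and 2.50 CPM in WT replicates 11, 13, 15, 17 and 19 and at 1.55, 1.33 and 1.48 CPM in cKO replicates 16, 18 and 20. Its log2 fold change was -2.07 (SE 0.61) in the MTAL. It did not pass the filter on low counts in the CTAL, where a fit without the filter gave -2.83.

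The morning arm ran the other way. Arntl was at 4.74, 4.33, 2.45, 6.07 and 3.74 CPM in WT CTAL replicates 1, 3, 8, 10 and 22 and at 19.2, 12.2, 7.20, 12.2 and 9.72 CPM in cKO CTAL replicates 2, 4, 7, 9 and 21. In the MTAL it was at 4.68, 8.93, 9.31, 2.16 and 10.3 CPM in WT replicates 11, 13, 15, 17 and 19 and at 9.06, 17.3 and 22.2 CPM in cKO replicates 16, 18 and 20. All cKO CTAL pools exceeded all WT CTAL pools, while in the MTAL cKO replicate 16 fell among the WT pools. Npas2 was at 0.462 to 1.85 CPM in WT MTAL and at 4.42, 8.94 and 3.91 CPM in cKO MTAL replicates 16, 18 and 20. In the CTAL, Npas2 was at 0.919 to 2.57 CPM in WT and 2.43 to 5.84 CPM in cKO pools, overlapping through WT replicate 22, and did not pass the filter there (log2 fold change of 1.44 without it).

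The ratio of Dbp to Arntl within a pool does not depend on library scaling. It was 13.3 to 72.0 in WT CTAL against 0.858 to 5.05 in cKO CTAL, and 6.00 to 77.4 in WT MTAL against 1.10 to 5.21 in cKO MTAL. The lowest WT pool of either segment, MTAL replicate 13, was above the highest cKO pool, MTAL replicate 16, by a small margin, and WT CTAL replicate 8 and WT MTAL replicate 17 had ratios over 2 times those of any other WT pool.

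**Figure D2:**
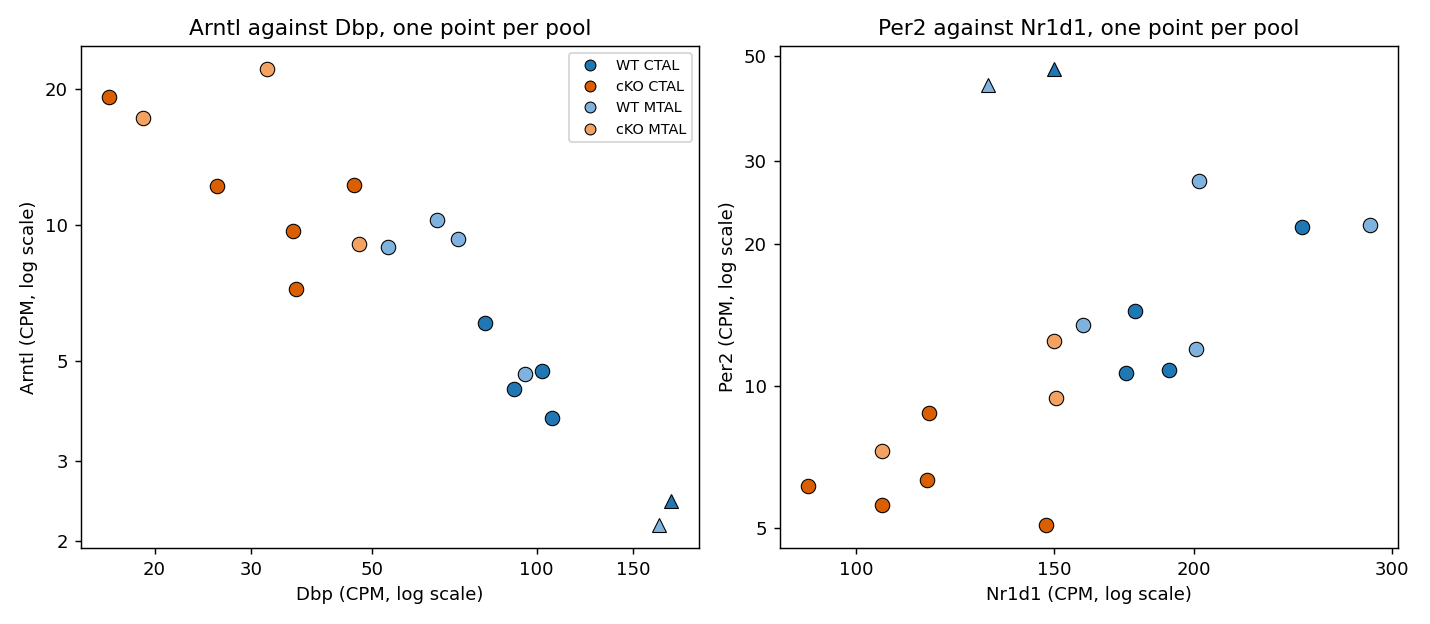
CPM of Arntl against Dbp (left) and of Per2 against Nr1d1 (right) on log scales, 1 point per pool, coloured by group, with triangles for WT CTAL replicate 8 and WT MTAL replicate 17. On the left the pools descend from cKO CTAL replicate 2 (Dbp 16.5, Arntl 19.2 CPM) to the triangles (Dbp 176 and 168, Arntl 2.45 and 2.16 CPM); on the right the triangles have the highest Per2 (47.1 and 43.4 CPM) at an Nr1d1 of 150 and 131 CPM, while the other WT pools have a Per2 of 10.7 to 27.2 CPM at an Nr1d1 of 159 to 287 CPM.

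The 2 WT pools that stood apart did so across the list. WT CTAL replicate 8 had the highest level of its group for 7 of the 8 evening members and the lowest for both morning members, and WT MTAL replicate 17 had the highest for 6 of 8 and the lowest Arntl. The exception in both pools was Nr1d1, which was the lowest of its group. The ratio of Per2 to Nr1d1 was 0.313 and 0.331 in these pools, against 0.0569 to 0.135 in the other 8 WT pools and 0.0343 to 0.0831 in the 8 cKO pools. At the other end, cKO CTAL replicate 2 had the lowest level of 5 evening members and the highest of both morning members in its group, and cKO MTAL replicate 18 the lowest of 6 evening members and the highest Npas2. WT MTAL replicate 11 combined the highest Nr1d1 (287 CPM) and Ciart (11.5 CPM) of its group with a low Arntl (4.68 CPM).

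WT CTAL replicate 8 and WT MTAL replicate 17 were also the deepest libraries of their groups (62339939 and 53280672 counts). Of the other deep pools, cKO CTAL replicate 9 (60990142 counts) had a ratio of Per2 to Nr1d1 of 0.0533. The ratio was 0.0679 in cKO CTAL replicate 2 (50015065 counts) and 0.0848 in WT MTAL replicate 13 (45510944 counts). The part of depth in these ratios was not tested. Without both WT pools, the log2 fold changes of Dbp were -1.58 in the CTAL and -1.12 in the MTAL, those of Per2 were -1.20 and -0.93, those of Per3 were -0.87 and -1.19, and those of Arntl were 1.35 and 0.98. All members tested kept their direction (Ciart had no value in that fit), and the call threshold of a log2 change of 1 was no longer reached by Tef (-0.87) and Per3 in the CTAL or by Per2 and Arntl in the MTAL.

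After the mean of its group was subtracted from each pool's log2(CPM + 1), the members still moved together from pool to pool. Over the 18 pools, Pearson's r was positive for all 21 pairs of evening members other than Nr1d1, with a median of 0.72 (0.47 to 0.91), and negative for all 7 of these members against Arntl, with a median of -0.70, and against Npas2, with a median of -0.56. The tightest pairs were Nr1d2 with Per3 (r = 0.91, Spearman's rho = 0.84), Dbp with Nr1d2 (r = 0.88, rho = 0.75) and Dbp with Tef (r = 0.88, rho = 0.90). Dbp against Arntl had r = -0.83 (rho = -0.78), and r = -0.73 without WT MTAL replicate 17 and cKO CTAL replicate 2, the pools farthest from the median of Dbp. These are descriptions of pools that share a scaling, without a test, because the members were chosen with the pools in view.

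**Figure D3:**
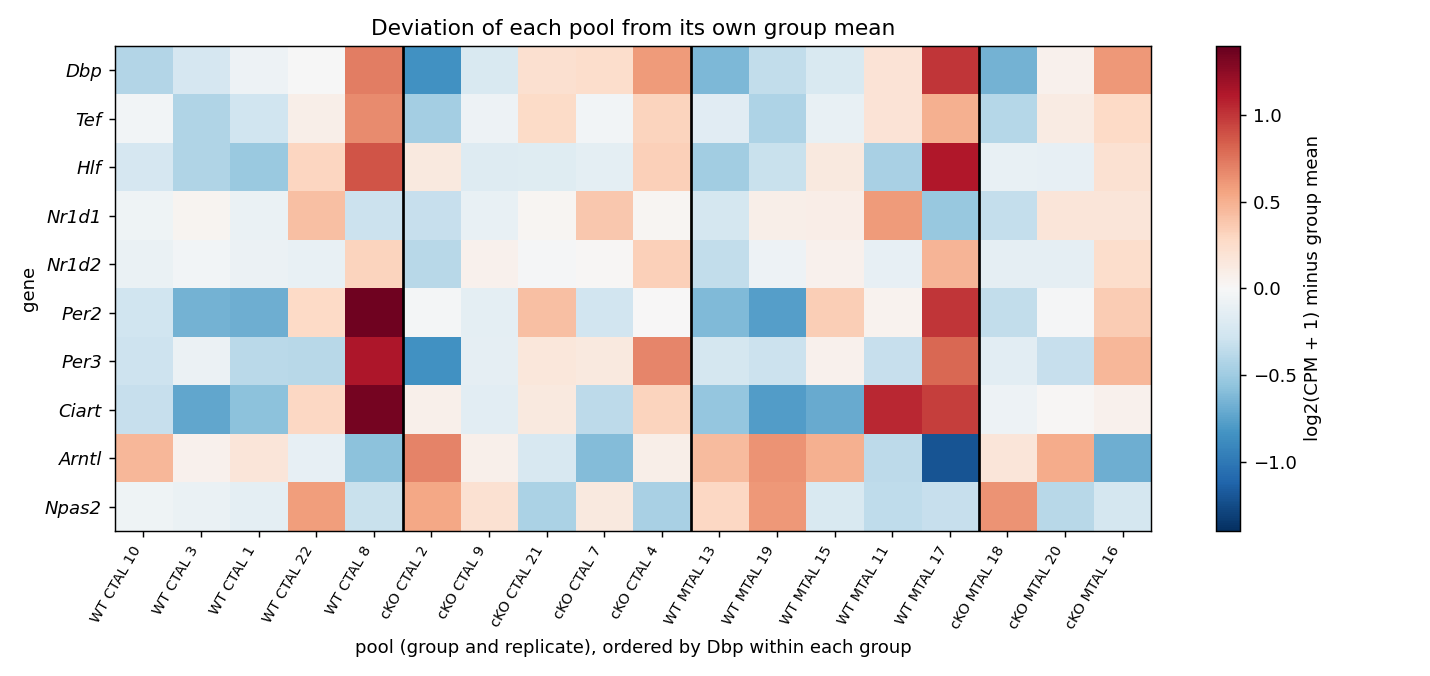
Heat map of log2(CPM + 1) of the 10 clock genes (rows) minus the mean of the pool's own group, in the 18 pools (columns, by group and ordered by Dbp within it); red is above and blue below the group mean. WT CTAL replicate 8 and WT MTAL replicate 17 are red for Dbp, Tef, Hlf, Nr1d2, Per2, Per3 and Ciart (0.32 to 1.36) and blue for Nr1d1 (-0.30 and -0.53) and Arntl (-0.57 and -1.21).

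The covariation rested in part on those 2 pools. Without them, and over 16 pools, the median r was 0.43 among the evening members other than Nr1d1 (20 of 21 pairs positive) and -0.46 against Arntl (1 of 7 positive). Dbp with Tef (r = 0.82), Nr1d2 with Per3 (r = 0.89) and Dbp against Arntl (r = -0.70) remained high, whereas Hlf against Arntl went from -0.57 to 0.02. In the 10 WT pools the median was 0.84 among the evening members and -0.76 against Arntl, and in the 8 cKO pools it was 0.40 and -0.52, with Dbp and Tef at 0.95.

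Nr1d1 was the member whose pattern changed most with those pools. Over all 18 pools its r with the other 7 evening members had a median of -0.15 (-0.39 to 0.10), with 2 of 7 positive. Without the 2 pools all 7 were positive, with a median of 0.49, and Nr1d1 against Arntl went from -0.02 to -0.69. Within groups, Nr1d1 also moved with the depth of the library (r = -0.65 with log10 total counts), the immediate early gene Fos (r = 0.73) and Cldn10 (r = 0.51). The part of each of these in its level was not tested. The r with depth was 0.0015 for Dbp, 0.41 for Per2 and -0.09 for Arntl, and the r with Fos was -0.06, -0.22 and 0.03. The r with Cldn10 was 0.0048, -0.17 and 0.11 for the same genes.

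Of 12589 genes expressed, the non-member closest to Dbp within groups was Cry2, the cryptochrome repressor (r = 0.94 over 18 pools), ahead of the members Nr1d2 and Tef. It was followed by Eif4b, a translation initiation factor (0.91), Jade2, a chromatin-associated PHD finger protein (0.88), Ahnak, a large scaffold protein (0.84), and Slc25a28, a mitochondrial iron carrier (0.83). Cry2 was at 26.1 CPM in WT CTAL replicate 8 and 31.7 CPM in WT MTAL replicate 17, against 12.7 to 15.9 and 14.03 to 22.8 CPM in the other WT pools of these segments, and at 8.004 to 13.7 CPM in cKO CTAL and 10.8 to 19.5 CPM in cKO MTAL. The non-members closest to Arntl were Tpcn1, an endolysosomal cation channel (0.81), Slc35e1 (0.79), Mtch1 (0.77), Ttll1, a tubulin glutamylase subunit (0.77), and 1810019D21Rik (0.76). Ahnak (-0.84), Cry2 (-0.83) and Jade2 (-0.80), close to Dbp, were also among the 5 non-members most opposed to Arntl.

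The genotype differences of the members in the MTAL and in the CTAL, which share no pool, were set against each other in one fit. The difference between them (MTAL minus CTAL, on the log2 scale) was largest for Npas2 (1.17, 95% confidence interval -0.15 to 2.49) and Ciart (0.76, -0.89 to 2.41), and for the other 8 members it lay between -0.43 for Nr1d2 (-0.88 to 0.01) and 0.44 for Per2 (-0.72 to 1.61). All 10 intervals included 0, and most were wide enough to include a difference of 1 log2 unit. Of 12586 genes, 0.230% were called for such a difference and 0.286% had an adjusted p under 0.05.

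The segments themselves were compared within each genotype. These contrasts were not used to choose the members, but they share their pools with the contrasts that were. In WT limbs, 0 of the 9 members tested were called between MTAL and CTAL, where 2.32% of 11650 genes were, and 0 had an unadjusted p under 0.05. The nearest were Nr1d2 (log2 fold change 0.26, SE 0.13, adjusted p = 0.306) and Arntl (0.73, SE 0.37, 95% confidence interval -0.06 to 1.52, adjusted p = 0.311), by edgeR's quasi-likelihood test with Benjamini-Hochberg adjustment over all genes. Dbp differed by -0.29 (-0.86 to 0.27). In cKO limbs, 0 of 9 were called, where 0.938% of 12044 genes were, and 1, Per2, had an unadjusted p under 0.05 (0.64, SE 0.27, adjusted p = 0.238 by edgeR). DESeq2 and limma likewise called 0 members in both. The intervals do not exclude differences of up to about 1 log2 unit for Per2 and Hlf, or more for Arntl (to 1.52) and Ciart (to 1.39) in WT and Npas2 (to 1.45) in cKO limbs.

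None of the further clock genes compared passed edgeR's test between the genotypes. Of 17 such genes, 13 passed the filter in each genotype comparison, and 0 were called and 0 had an adjusted p under 0.05 in either, where 1.22% of all genes in the CTAL and 7.01% in the MTAL had such an adjusted p. At an unadjusted p under 0.05 there were 2 in the CTAL and 3 in the MTAL, and DESeq2 and limma also called 0, although Csnk1d had an adjusted p of 0.0261 with limma on log2(TPM + 1) in the MTAL (0.96). Their median log2 fold change was -0.15 in the CTAL and -0.24 in the MTAL. Since the members were picked for their differences, the gap between the lists is a description.

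**Figure D4:**
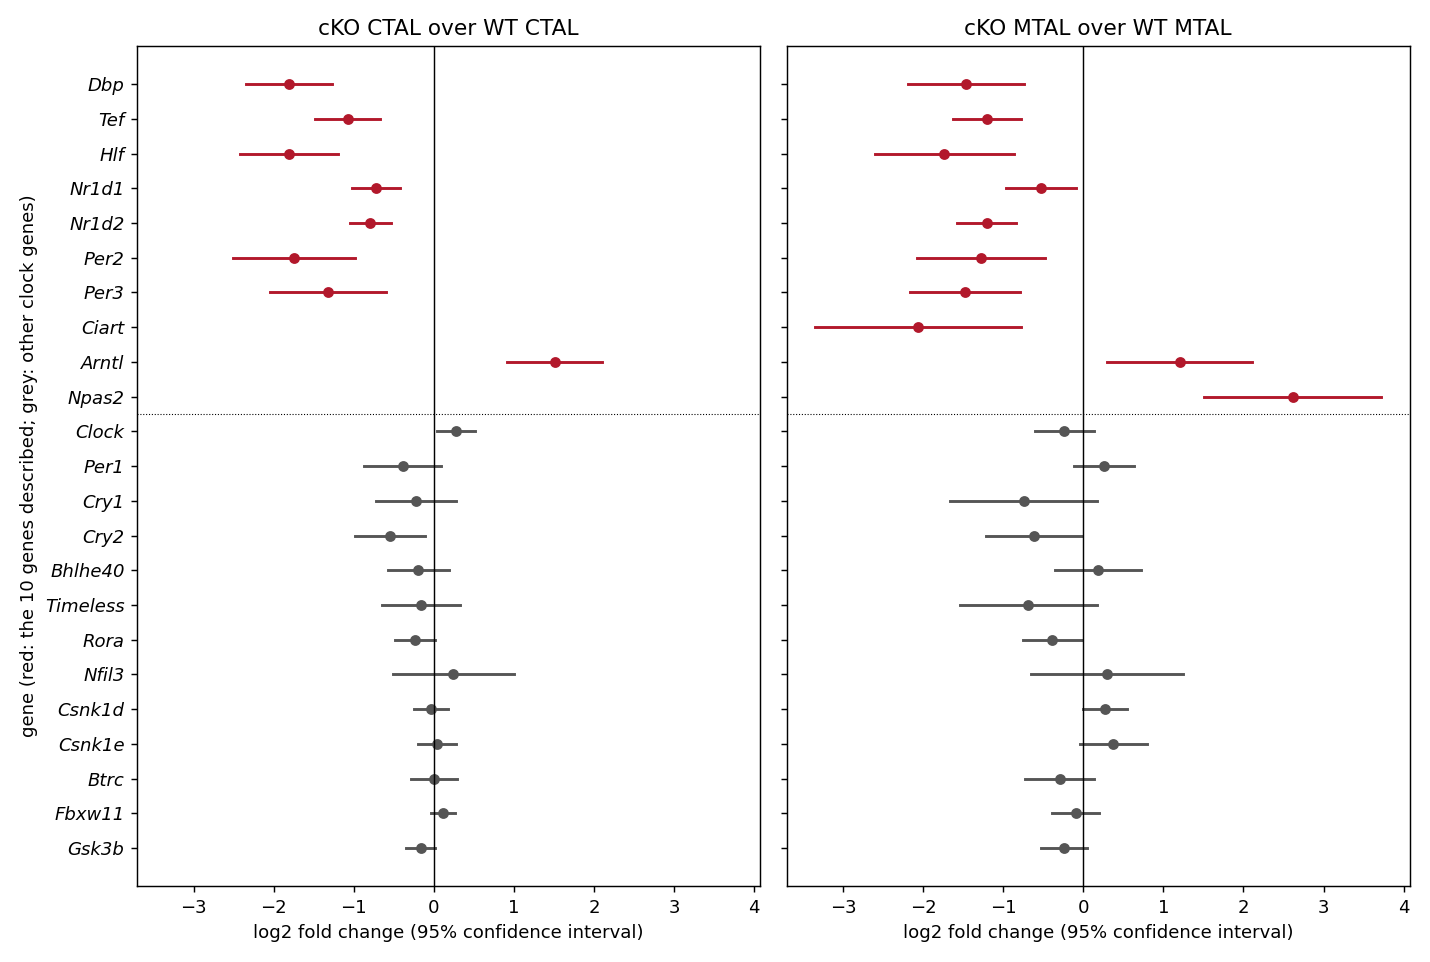
Log2 fold changes of cKO over WT in the CTAL (left) and the MTAL (right) with 95% confidence intervals from the edgeR fit, for the members tested (red) and the other clock genes that passed the filter (grey). The members lie between -0.53 and -2.07 for the evening arm and between 1.20 and 2.61 for the morning arm; the 13 grey genes lie between -0.75 and 0.37. Ciart and Npas2 have no point on the left because they did not pass the filter there.

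Clock, the partner of BMAL1, averaged 59.6 ± 8.73 CPM over the WT CTAL pools (SD, n = 5), 72.7 ± 7.75 CPM (n = 5) in cKO CTAL, 60.01 ± 6.91 CPM (n = 5) in WT MTAL and 50.7 ± 14.2 CPM (n = 3) in cKO MTAL. Its log2 fold changes were 0.28 in the CTAL (adjusted p = 0.304 by edgeR) and -0.24 in the MTAL (adjusted p = 0.446 by edgeR). Among the repressors, Per1 was at -0.39 and 0.26 (adjusted p = 0.544 and 0.419), Cry1 at -0.22 and -0.75 (0.784 and 0.317) and Cry2 at -0.55 and -0.62 (0.276 and 0.200) in the CTAL and the MTAL by the same edgeR fits. Per1 lay within overlapping ranges in both segments, unlike Per3 in both and Per2 in the CTAL, with 28.9 to 69.9 CPM in cKO CTAL, 47.4 to 95.8 CPM in WT CTAL, 73.5 to 90.6 CPM in cKO MTAL and 41.4 to 77.8 CPM in WT MTAL. The difference between Per1 and the members was not tested. Bhlhe40 was at -0.19 and 0.18, Timeless at -0.15 and -0.69, and Bhlhe41 was below the filter in both comparisons.

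Of the genes of the ROR loop, which activate Arntl through the element that REV-ERB receptors occupy or, for Nfil3, oppose PAR bZIP factors at D-boxes, Rora was at -0.23 and -0.39 in the CTAL and the MTAL, Nfil3 at 0.24 and 0.29, and Rorb was hardly detected. Nfil3 varied widely between pools, from 2.86 CPM to 22.8 CPM. Among the kinases and ubiquitin ligase subunits that act on clock proteins, Csnk1d, Csnk1e, Btrc, Fbxw11 and Gsk3b lay between -0.17 and 0.12 in the CTAL and between -0.30 and 0.37 in the MTAL. Arntl2 and Fbxl21 did not pass the filter.

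Of 9 clock output genes, 8 were tested, and Nampt, the rate-limiting enzyme of NAD salvage and a target of CLOCK and BMAL1, fell in both segments. It went from 201 ± 17.3 CPM (SD, n = 5) to 153 ± 8.95 CPM (n = 5) in the CTAL (log2 fold change -0.40, SE 0.08, adjusted p = 0.0161 by edgeR) and from 318 ± 56.8 CPM (n = 5) to 192 ± 37.7 CPM (n = 3) in the MTAL (-0.72, SE 0.16, adjusted p = 0.0131 by edgeR), without overlap in either. It was also higher in WT MTAL than in WT CTAL (0.66, adjusted p = 0.0013 by edgeR), where 6.87% of all genes had an adjusted p under 0.05. The other 7 did not pass the test in either genotype comparison. Thus 1 of 8 passed in each, where 1.22% of all genes in the CTAL and 7.01% in the MTAL did. At an unadjusted p under 0.05 by edgeR there were 3 in the CTAL and 2 in the MTAL. Of 10 genes that respond to glucocorticoids, a hormone that entrains peripheral clocks, 1 passed in the MTAL, near the 7.01% of all genes there, and 0 in the CTAL, where 4 had an unadjusted p under 0.05 by edgeR. This was Nr3c1, the glucocorticoid receptor itself, which fell in the MTAL (-0.50, SE 0.14, adjusted p = 0.0415 by edgeR) from 118 ± 15.6 CPM (n = 5) to 83.0 ± 12.4 CPM (n = 3).

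Other transcripts moved with the same groups. Of 8 immediate early genes, 5 fell in cKO CTAL against WT CTAL, where 1.22% of all genes passed in either direction (chosen after their values were seen, Fosb by 1.28 and Fos by 1.08 on the log2 scale, adjusted p = 0.0057 and 0.0151 by edgeR), with summed levels of 665 to 1021 CPM against 974 to 2197 CPM. In the MTAL 0 of 8 passed and 1 had an unadjusted p under 0.05 by edgeR, with 2391 to 2574 CPM in cKO against 1463 to 6050 CPM in WT, the highest being WT replicate 11. Between cKO MTAL and cKO CTAL, 7 of 8 rose, where 1.75% of all genes had an adjusted p under 0.05. In that comparison Fos was higher by 1.81. Of the members, Dbp differed by 0.06 (SE 0.33), Nr1d1 by 0.27 (SE 0.16), Arntl by 0.45 (SE 0.33) and Per2 by 0.64 (SE 0.27). Of 6 endothelial markers, 3 fell in cKO MTAL, where 7.01% of all genes passed in either direction, and 0 passed in cKO CTAL, where 1.22% did and 5 markers had an unadjusted p under 0.05 by edgeR, and their sum was at 128 to 233 CPM in cKO MTAL against 234 to 355 CPM in WT MTAL, and at 166 to 241 CPM in cKO CTAL against 194 to 443 CPM in WT CTAL. Lists of other tubule and stromal cells also held genes that rose. Of the proximal tubule markers, 2 of 3 tested rose there (summed level of 33.3 to 139 CPM against 24.2 to 37.7 CPM in WT MTAL) and 0 of 3 passed in the CTAL, where 0 had an unadjusted p under 0.05 by edgeR. Of the intercalated cell markers, 1 of 3 tested rose in the MTAL (27.3 to 158 CPM against 14.4 to 65.7 CPM) and 1 of 4 in the CTAL (37.9 to 135 CPM against 35.1 to 42.2 CPM). Of the fibroblast and pericyte markers, 1 of 4 tested rose in the MTAL, where their sum did not overlap (54.0 to 63.6 CPM against 32.8 to 37.4 CPM), and 0 of 3 passed in the CTAL, where 0 had an unadjusted p under 0.05 by edgeR (26.7 to 47.5 CPM against 25.2 to 43.1 CPM). Of the principal cell markers, 0 of 5 passed in either segment by edgeR, with 3 in the MTAL and 0 in the CTAL at an unadjusted p under 0.05, and their sum was 944 CPM in 1 cKO MTAL pool and 112 and 117 CPM in the other 2, against 65.4 to 313 CPM in WT MTAL. The part of these transcripts in the levels of the members was not tested.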

How the data were processed

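RNA of microdissected tubule pools was sequenced from a strand-specific library. The authors trimmed the reads (fastp in their methods, Trimmomatic in the submitters' processing notes), mapped them to mm10 and quantified them with DRAGEN and a gencode annotation. They deposited estimated counts per gene, not normalized, and TPM values, in which the authors corrected for transcript length and scaled each pool to the same total. Whether counting used the strand is not given in the sources used here. Pools that the study excluded (2 of cKO MTAL on quality, 1 of cKO CTAL on Cldn10) were not analysed here. Each pool came from a different mouse, per the methods.

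Estimated counts were rounded to whole numbers. The depth was 10824299 to 62339939 counts a pool and TMM factors stayed between 0.937 and 1.08, so that the scarcest members rest on few reads and values cover counting error and the spread between pools only. No replicate pair differed by as little as sampling noise (chi-square per gene of 16.1 to 145). A gene entered a fit if 5 pools (3 in fits that include cKO MTAL) reached 3 CPM. Each pair of groups was fitted by edgeR 4.0.16 in R 4.3.3 with TMM scaling and its quasi-likelihood test, with Benjamini-Hochberg adjustment over all genes tested. The difference of the genotype effects was an interaction term in one fit of 18 pools. The fits were tested on simulated data. CPM use TMM factors over all 18 pools. Alternatives were DESeq2 (version 1.42.0), limma (version 3.58.1) on log2(TPM + 1), other scalings and filters, and each pool left out. Within-group covariation used log2(CPM + 1) minus the group mean.

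The members, gene lists and tests were chosen with earlier results of these data known. The genes named are the members, the other clock genes with a value (some are not reported here), the output and glucocorticoid genes that passed, and the 5 non-members closest to Dbp and to Arntl. 55141 of the gene identifiers (99.5%) are in the GRCm38 annotation.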

Additional observations from a re-analysis of the deposited data

Results flagged for a closer look

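Single pools stood far from the rest of their group, by Dixon's criterion at the 95% level, for 15 levels of the members and other clock genes in the 81 groups of 5 pools tested. The criterion's rate of about 1 in 20 holds for independent values. These genes share their pools and many vary together, so nothing is read from the count of 15.

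Of these, 7 belonged to WT CTAL replicate 8 or WT MTAL replicate 17. The members were Dbp (176 CPM), Nr1d2 (182 CPM) and Per3 (46.0 CPM) in WT CTAL replicate 8, and Hlf (31.1 CPM) and Per3 (36.7 CPM) in WT MTAL replicate 17, each the highest of its group. Cry2 was highest in WT CTAL replicate 8 (26.1 CPM). Arntl2 was also highest in WT CTAL replicate 8 (0.509 CPM), at a level of few reads.

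The others were spread over further pools, each as the highest of its group. Npas2 was at 2.57 CPM in WT CTAL replicate 22, Arntl2 at 0.560 CPM in cKO CTAL replicate 9 and at 0.560 CPM in WT MTAL replicate 15, Timeless at 4.90 CPM in cKO CTAL replicate 4, Rora at 67.5 CPM and Gsk3b at 142 CPM in WT CTAL replicate 3, and Csnk1d at 111 CPM in WT CTAL replicate 22 and at 113 CPM in cKO CTAL replicate 21.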

How the results depend on the processing

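No paired analysis was made, because the labels do not state which pools of the groups compared belong together. The counts of members called between the segments, and of other clock genes called in the genotype comparisons and for the difference between them, were 0 under every alternative that gave a value. Csnk1d had an adjusted p of 0.0261 with limma on log2(TPM + 1) in the MTAL (0.96), and Clock one of 0.0293 by edgeR for the difference of the genotype effects without cKO MTAL replicate 18 (-0.76), neither reaching a log2 change of 1. The members' log2 fold changes between the genotypes kept their direction under every alternative, and of 305 such values 7 moved by more than the spread between pools, all on the log2(TPM + 1) scale, which shrinks the changes of scarce genes (Npas2 1.38 and Ciart -1.16 in the MTAL, for example). Counting WT CTAL replicate 1 as cKO gave -1.39 for Dbp and 1.399 for Arntl in the CTAL.

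The median within-group r among the evening members other than Nr1d1 was 0.60 on TPM, 0.43 without WT CTAL replicate 8 and WT MTAL replicate 17 (an alternative chosen after seeing the data) and 0.62 to 0.78 with 1 pool left out. Their median against Arntl was -0.51 on TPM, -0.60 as Spearman's rho, -0.46 without both pools and -0.74 to -0.56 with 1 pool left out, and their median against Npas2 was -0.36 on TPM. The median of Nr1d1 with the other evening members reversed from -0.15 to 0.49 without both pools, and ranged from -0.26 to 0.18 with 1 pool left out, turning positive without WT CTAL replicate 8 (0.00714) or WT MTAL replicate 17 (0.18). The causes were not tested. The precision is limited by 3 cKO MTAL pools and by low counts, from 6 reads for Ciart and from 8 reads for Npas2.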

Other observations

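Among the 5 non-members most opposed to Dbp within groups were Car2, the cytosolic carbonic anhydrase (r = -0.86), Got1, an aspartate aminotransferase (-0.84), Actb, cytoplasmic actin (-0.83), Calr, an endoplasmic reticulum chaperone (-0.82), and Scd2, a fatty acid desaturase (-0.82). Their levels between the genotypes did not all follow this: the mean of Car2 was at 241 CPM in WT CTAL and 219 CPM in cKO CTAL, and that of Scd2 at 68.7 and 128 CPM. Of the 5 non-members most opposed to Arntl, Ankrd12 (-0.87) and Kctd6 (-0.80) were not among those named beside Dbp. These genes were named after their values were seen, and the values are of 18 pools without a test.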
